A study of Mus musculus with 2 samples.

Results

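Interferon-stimulated genes are described here in PDGFRα+ cells of mouse inguinal white fat. A list of 40 such genes was drawn up by name, and a gene was taken as measured where a probe set is annotated to it alone. The probe set with the highest mean over both arrays stood for a gene with several. This gave 36 measured members among 19938 genes. Isg15, Gbp2 and Igtp share their probe sets with another gene, and Ifi44 is not listed in the annotation used here. The cells came from the stromal vascular fraction, the mixture of non-fat cells that collagenase frees from the tissue, and were sorted with an antibody to the growth factor receptor PDGFRα. The PreASKO group was labelled Sox9 PreASKO and its control carried floxed Sox9. Both groups were female mice of 6 weeks given doxycycline at postnatal day 1. Each group was a single array, and the series describes its RNA as pooled from 3 mice. The promoter that drives the recombinase is not given in the sources used here.

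No difference between the arrays has a replicate check, an SD or a p-value, and pooling leaves the spread between mice unmeasured. Each difference below is the PreASKO value minus the floxed value in log2 units, and the 1.5-fold limit named by the series is 0.58 in these units. The medians of the arrays over every probe set were 4.71 for PreASKO and 4.73 for floxed. Sox9, the targeted gene, had 4.97 on the PreASKO array and 5.25 on the floxed array, and it was not examined whether its probes cover the deleted exons. To describe the sorted RNA, 11 measured markers of fibroblast-like cells were read. The mean level of each of these 11 lay above a background mark of 4.64, the 95th percentile of 1027 olfactory receptor genes on the array where that percentile was higher. These receptor genes were not level between the arrays, with 346 higher and 595 lower on the PreASKO array and a median difference of -0.08. Pdgfra itself had 9.55 on the PreASKO array and 9.86 on the floxed array. All 20 macrophage markers also had a mean level above the mark. Their median level was 9.04 on the PreASKO array and 8.56 on the floxed array. For all genes with a mean above the mark it was 6.42 (PreASKO) and 6.38 (floxed). Transcripts of these markers were thus detected in the sorted RNA, and the share of macrophages in it was not measured. The mark was passed too by 8 of 10 mural, 6 of 9 endothelial and 3 of 7 fat cell markers. Of all 19938 genes 11381 passed it, so passing the mark does not check the purity of the sort. In such bulk RNA, a change in the number of cells of a type and a change in RNA per cell cannot be told apart.

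Interferons are cytokines that cells release on sensing viral nucleic acid or that lymphocytes release on activation. Type I interferons signal through the receptor chains IFNAR1 and IFNAR2 and the kinases TYK2 and JAK1 to a complex that includes STAT2 and IRF9. This complex binds the interferon-stimulated response element in target promoters, while interferon gamma acts through a palindromic site. The induced genes encode sensors of foreign nucleic acid, factors that amplify the response, proteins that block viral replication, and large GTPases that attack microbes inside cells. Many are also expressed at a low level without infection, in stromal cells and in macrophages.

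The promoters of the members were examined first, because they hold the elements through which interferons act. RefSeq promoter windows of build GRCm38.p6, running from 250 bases before the annotated start to 50 bases after it, were supplied for 30 of the 40 members. The core of the response element was taken as GAAA, any 2 bases, and GAAA again, and was searched on both strands with overlapping matches counted. It was present for 16 of these 30 genes (53.3%). Of all 27025 genes with a window, 3.99% held it. It was found for 3 of 4 sensors, 1 of 4 transcription factors, 7 of 17 antiviral effectors and 5 of 5 GTPases that had a window. The STAT-type palindrome TTCNNNGAA was present for 8 of the 30 members (26.7%) and for 9.55% of all genes with a window. Its match in the Bst2 window overlaps the response element core. Of the 24 matches to the core, 21 began before the annotated start, and 19 of these within 130 bases of it. The windows of 6 members are shown because these genes lie at the ends of the measured range: Herc6, Rsad2, Bst2 and Oas1a had 4 of the 5 most positive differences, and Gbp7 and Irgm1 the most negative. Oas2, the other of those 5, had no window. Each is written in the direction of transcription, and the capitals mark matches to the response element core on either strand.
Herc6, chr6:57580742-57581041, plus strand: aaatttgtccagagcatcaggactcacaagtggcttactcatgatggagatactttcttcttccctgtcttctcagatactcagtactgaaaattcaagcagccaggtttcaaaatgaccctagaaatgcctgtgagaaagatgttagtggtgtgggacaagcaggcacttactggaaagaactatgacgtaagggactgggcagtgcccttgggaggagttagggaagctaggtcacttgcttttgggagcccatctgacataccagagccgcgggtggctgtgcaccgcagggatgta
Rsad2, chr12:26456403-26456702, minus strand: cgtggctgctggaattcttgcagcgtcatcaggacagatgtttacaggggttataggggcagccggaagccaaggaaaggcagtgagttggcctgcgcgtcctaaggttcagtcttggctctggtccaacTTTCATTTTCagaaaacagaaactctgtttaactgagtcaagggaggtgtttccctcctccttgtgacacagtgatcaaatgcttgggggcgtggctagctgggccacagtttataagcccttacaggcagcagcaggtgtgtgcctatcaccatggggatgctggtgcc
Bst2, chr8:71537423-71537722, minus strand: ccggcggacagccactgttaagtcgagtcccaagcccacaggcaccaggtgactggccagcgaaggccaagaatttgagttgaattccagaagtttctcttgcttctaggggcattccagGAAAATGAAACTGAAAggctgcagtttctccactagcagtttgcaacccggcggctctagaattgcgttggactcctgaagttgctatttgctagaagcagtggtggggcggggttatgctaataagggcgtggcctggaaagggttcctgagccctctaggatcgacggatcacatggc
Oas1a, chr5:120907476-120907775, minus strand: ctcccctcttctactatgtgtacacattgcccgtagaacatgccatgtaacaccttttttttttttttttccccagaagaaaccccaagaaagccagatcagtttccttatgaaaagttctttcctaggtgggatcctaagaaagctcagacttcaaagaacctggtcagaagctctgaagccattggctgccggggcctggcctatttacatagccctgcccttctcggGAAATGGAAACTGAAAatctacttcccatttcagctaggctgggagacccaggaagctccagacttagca
Gbp7, chr3:142530086-142530385, plus strand: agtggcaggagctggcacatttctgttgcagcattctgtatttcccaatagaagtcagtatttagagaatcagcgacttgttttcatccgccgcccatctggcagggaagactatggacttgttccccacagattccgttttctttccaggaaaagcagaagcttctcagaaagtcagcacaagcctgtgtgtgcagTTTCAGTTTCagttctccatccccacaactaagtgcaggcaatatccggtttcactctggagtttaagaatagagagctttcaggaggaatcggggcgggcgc
Irgm1, chr11:48871371-48871670, minus strand: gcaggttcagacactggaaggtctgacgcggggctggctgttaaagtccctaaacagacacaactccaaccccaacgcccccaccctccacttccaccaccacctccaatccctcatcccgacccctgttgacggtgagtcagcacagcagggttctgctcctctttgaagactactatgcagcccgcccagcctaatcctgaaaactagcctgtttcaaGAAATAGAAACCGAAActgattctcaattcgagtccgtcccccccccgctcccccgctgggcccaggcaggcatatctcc

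The Herc6 window held no match to the core, although this gene had the most positive difference of the members. The cores of Bst2, Oas1a and Irgm1 were 2 overlapping matches each, and those of Rsad2 and Gbp7 were single. In Irgm1 their first bases lay at -30 and -24 from the start, and in Bst2 at -130 and -124. Among measured members with a window, the 13 that held the core had a median difference of 0.08, and 8 of them were higher on the PreASKO array. That median is the value of Oas3, whose level was that of background, and without it 7 of 12 were higher with a median of 0.12. The 13 without the core had a median difference of 0.19, and 12 of them were higher. These sets differ in role. The lower members with the core were the sensors Ifih1 and Ddx58 and the GTPases Gbp3, Gbp7 and Irgm1. Every measured antiviral effector with the core was higher, and no GTPase with a window lacked it. The part of role in this contrast was not tested. A match describes letters in this window and is not evidence of binding, and a window without one says nothing about sites elsewhere.

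**Figure D1:**
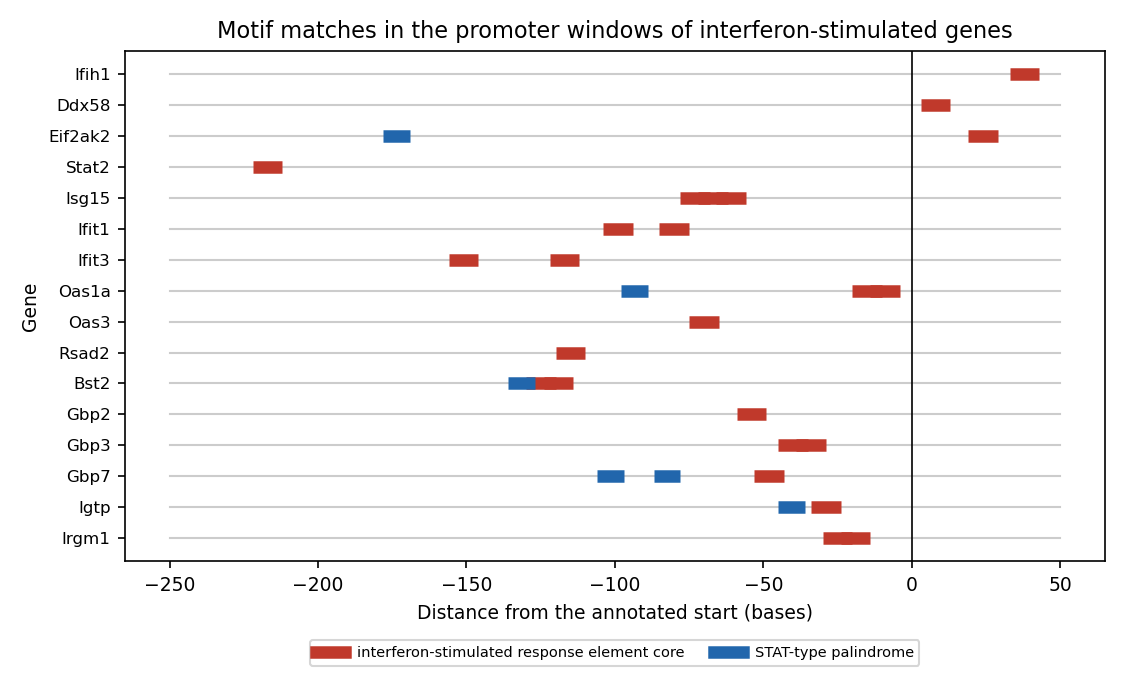
Positions of motif matches in the promoter windows of the 16 members with a response element core. The horizontal axis is the distance in bases from the annotated start, each row is a gene, red bars are matches to the response element core and blue bars are matches to the STAT-type palindrome; 21 of the 24 red matches begin before the start.

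The list as a whole was slightly higher on the PreASKO array, with the antiviral effectors furthest in that direction. Of the 36 measured members 28 were higher and 8 lower, whereas 48.2% of all genes were higher and 48% lower. The median difference was 0.16, against a median of 0 over all genes and 0.02 over the 11381 genes whose mean level passed the background mark. At least 1.5-fold higher was 1 member, Herc6, which is 2.78% of the members, and 1.66% of all genes passed that limit. No member was 1.5-fold lower, where 1.98% of all genes were. At 1.2-fold, 9 members (25%) were higher and none was lower, against 13.7% and 14% of all genes. Lower genes were fewer among the 11381 above the mark. There 1567 were at least 1.2-fold higher and 1150 lower, and at 1.5-fold 171 were higher and 128 lower. At 2-fold no member was higher, where 0.11% of all genes were. The single count at 1.5-fold is near what the whole table gives, and all 9 genes past 1.2-fold were antiviral effectors. On these arrays the 20 macrophage markers had a median difference of 0.44, and their part in the values of the members was not tested.

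By mean level, 34 of the 36 measured members passed the background mark, and so did 11381 of all 19938 genes. These 34 members lay above it on both arrays. Oas3 and Mx1 were below it on both, so their differences are not read. The members nearest to the mark were Cmpk2 on the upper side, with 5.03 on the PreASKO array and 4.96 on the floxed array, and Mx1 on the lower side, with 4.41 (PreASKO) and 4.50 (floxed). Of the 34 members above the mark 27 were higher and 7 lower, and 53.3% of all genes above the mark were higher and 45% lower. A stricter mark of 5.43, set at the 99th percentile of those receptor genes, was passed on both arrays by 32 members. How many of all genes pass the stricter mark was not counted.

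**Figure D2:**
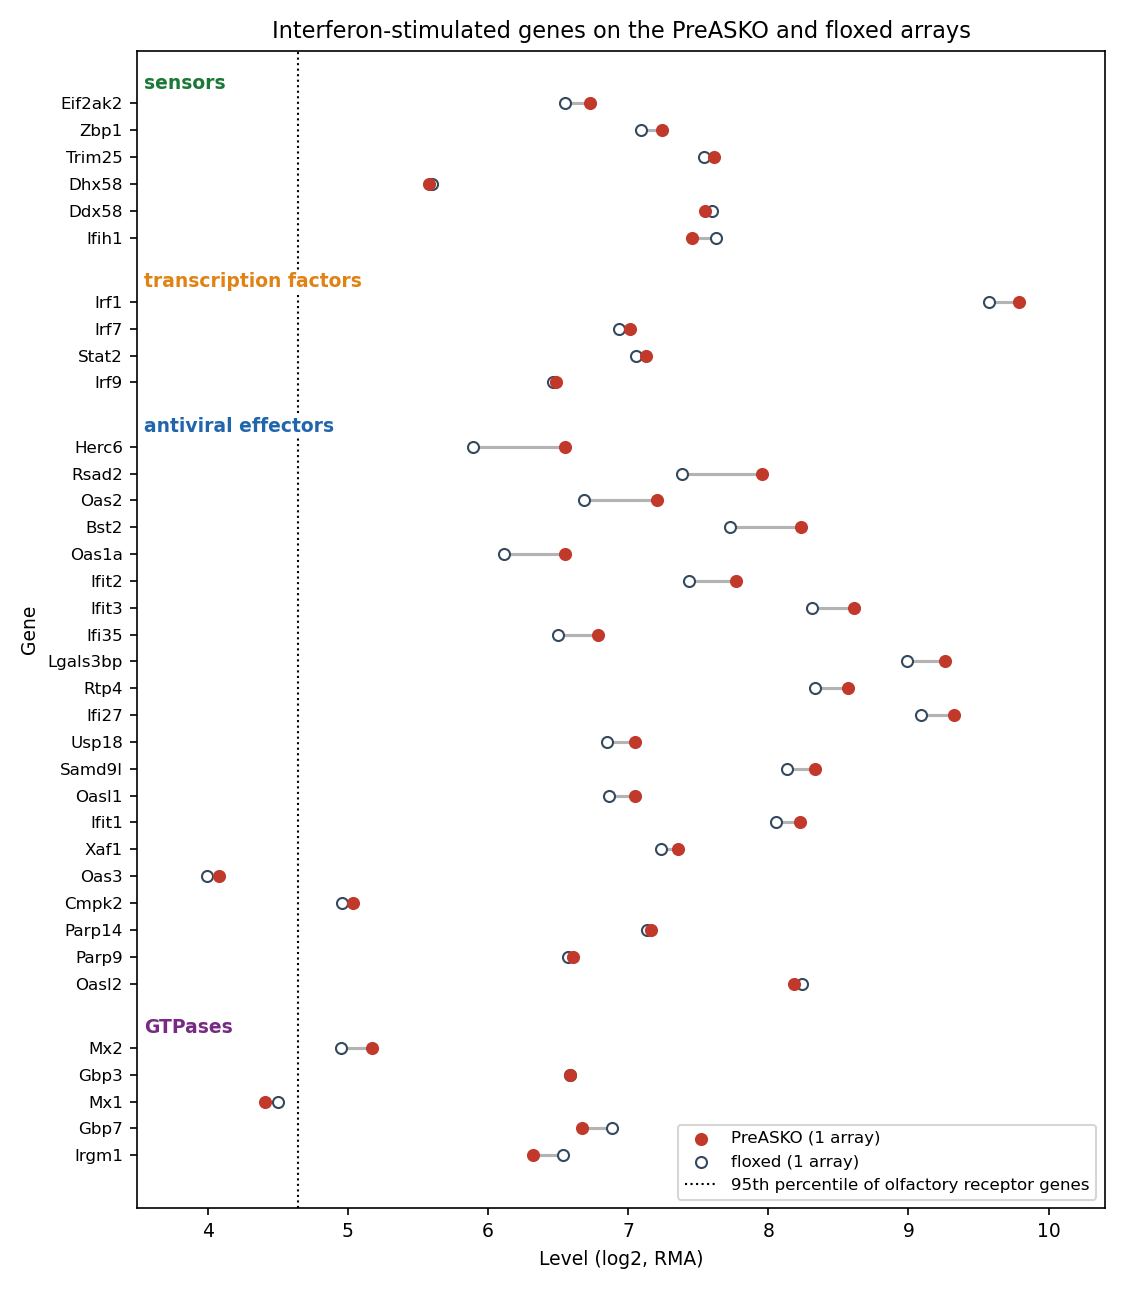
Level of each of the 36 measured members (log2, RMA) on the PreASKO array (filled red) and the floxed array (open), 1 array each, grouped by role. The dotted line is the background mark at 4.64. Nearly all antiviral effectors have the red point to the right, and Ifih1, Gbp7 and Irgm1 have it to the left.

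The sensors were split between the arrays, with 3 of 6 higher, 3 lower and a median difference of 0.02. The RNA helicases of the RIG-I family were each marginally lower on the PreASKO array. Ifih1, which encodes MDA5, a sensor of long double-stranded RNA, had 7.46 on the PreASKO array and 7.62 on the floxed array, a difference of -0.17. Ddx58, which encodes RIG-I, had 7.55 (PreASKO) and 7.60 (floxed). Dhx58, which encodes the helicase LGP2 that modulates the other two, had 5.58 (PreASKO) and 5.60 (floxed).

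The remaining sensors were marginally higher. Eif2ak2, the gene of the kinase PKR that halts translation on binding double-stranded RNA, had 6.73 on the PreASKO array and 6.55 on the floxed array, a difference of 0.18. Zbp1, whose product binds nucleic acid in the Z form and can start necroptosis, had 7.24 (PreASKO) and 7.09 (floxed). Trim25, a ubiquitin ligase gene that assists RIG-I, had 7.61 (PreASKO) and 7.54 (floxed). No sensor reached 1.2-fold in either direction.

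All 4 transcription factors were higher on the PreASKO array, by a median of 0.07 and none by 1.2-fold. Irf1, an activator strongly induced by interferon gamma, had 9.79 on the PreASKO array and 9.57 on the floxed array, a difference of 0.22, and its other probe set differed by 0.15. Irf7, the factor that amplifies type I interferon production, had 7.01 (PreASKO) and 6.93 (floxed). Stat2 had 7.13 (PreASKO) and 7.06 (floxed), and Irf9, the DNA-binding partner of STAT2, had 6.48 (PreASKO) and 6.46 (floxed). Stat2 and Irf9, whose products belong to the DNA-binding complex of the type I pathway, were thus nearly level, and the sign of Irf9 turned with a loess correction.

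Antiviral effectors were the group with the most positive median. Of 21 measured members 20 were higher on the PreASKO array, among them Oas3 below background, and 1 was lower, with a median difference of 0.23. The 5 most positive differences were those of Herc6, Rsad2, Oas2, Bst2 and Oas1a. Herc6, which encodes the main ligase for the ubiquitin-like protein ISG15 in mice, had 6.55 on the PreASKO array and 5.89 on the floxed array, which is 1.58-fold higher. Rsad2, the gene of viperin, an enzyme that makes a chain-terminating nucleotide, had 7.96 (PreASKO) and 7.39 (floxed), a difference of 0.57. Bst2, which encodes tetherin, a membrane protein that holds budding virus at the cell surface, had 8.24 (PreASKO) and 7.73 (floxed), a difference of 0.51. These 5 were the members above 0.42, the 95th percentile of all differences, and no member lay below -0.43, the 5th percentile.

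The genes of the ISG15 system pointed the same way. Usp18, which encodes the protease that removes ISG15 from proteins and also damps the type I receptor, had 7.05 on the PreASKO array and 6.85 on the floxed array, a difference of 0.20. The probe set that Isg15 shares with Gm9706 had 6.95 (PreASKO) and 6.64 (floxed), a difference of 0.30 that cannot be assigned to Isg15 alone.

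The oligoadenylate synthetase family, whose enzymes make the short signal molecules that switch on RNase L, was not uniform. Oas2 had 7.20 on the PreASKO array and 6.68 on the floxed array, a difference of 0.52. Oas1a had 6.55 (PreASKO) and 6.11 (floxed), a difference of 0.44, and it has close copies that could share signal with it. Against these, Oasl2 had 8.18 (PreASKO) and 8.24 (floxed), which made it the 1 effector with a lower value. Oasl1, whose product in mice limits translation of Irf7 mRNA, differed by 0.19, and Oas3 was below background with 4.08 on the PreASKO array and 3.999 on the floxed array.

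The 3 IFIT genes among the members, whose products bind foreign RNA and block its translation, were all higher. Ifit2 had 7.77 on the PreASKO array and 7.44 on the floxed array, a difference of 0.33. Ifit3 had 8.61 (PreASKO) and 8.31 (floxed), a difference of 0.30. Ifit1 had 8.23 (PreASKO) and 8.06 (floxed), a difference of 0.17. Thus 2 of these 3 members passed 1.2-fold. Outside the members, Ifit3b had 5.41 on both arrays.

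Most of the other effectors differed by 0.12 to 0.28. Ifi35 had 6.78 on the PreASKO array and 6.50 on the floxed array, and Lgals3bp, which encodes a secreted binding partner of galectin-3, had 9.26 (PreASKO) and 8.99 (floxed). These were the last of the 9 members past 1.2-fold. Rtp4, an interferon-induced gene with antiviral activity, had 8.57 (PreASKO) and 8.33 (floxed). Ifi27 had 9.32 (PreASKO) and 9.09 (floxed), and Samd9l, a restriction factor gene, had 8.33 (PreASKO) and 8.14 (floxed). The pro-apoptotic gene Xaf1 had 7.36 (PreASKO) and 7.23 (floxed), a difference of 0.12. The smallest differences were in Cmpk2 (0.08), which encodes a mitochondrial nucleotide kinase, and in Parp9 and Parp14 (0.03 each), which encode members of the ADP-ribosyltransferase family.

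The interferon-inducible GTPases had differences of both signs. Of 5 measured members, Irgm1 and Gbp7 were lower on the PreASKO array, Gbp3 was level, Mx2 was higher and Mx1 was below background. The median difference over all 5 was -0.09, which is the value of Mx1 itself. Over the 4 above the mark it was -0.11, and with values raised to the mark it was -0.006. Irgm1, which encodes a regulator of the immunity-related GTPases on cell membranes, had 6.32 on the PreASKO array and 6.54 on the floxed array, a difference of -0.22. Gbp7, a guanylate-binding protein gene, had 6.67 (PreASKO) and 6.88 (floxed), also a difference of -0.22. Gbp3 had 6.58 (PreASKO) and 6.59 (floxed). Mx2, a dynamin-like restriction factor gene, had 5.17 (PreASKO) and 4.95 (floxed), a difference of 0.22. The shared probe sets were split. That of Gbp2 and Gbp2b had 7.16 on the PreASKO array and 7.33 on the floxed array, and that of Igtp and Irgm2 had 8.25 (PreASKO) and 8.16 (floxed). Guanylate-binding and immunity-related GTPases are among the genes that interferon gamma induces most strongly. Genes of these families outside the members and above the mark were near level. They were Gbp5 (-0.07), Gbp8 (0.03), Gbp9 (0.09) and Iigp1 (-0.04), while Gbp4 and Gbp11 were below background on both arrays. With 5 measured members and 1 array a group, the distance between the GTPases and the effectors has no test.

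**Figure D3:**
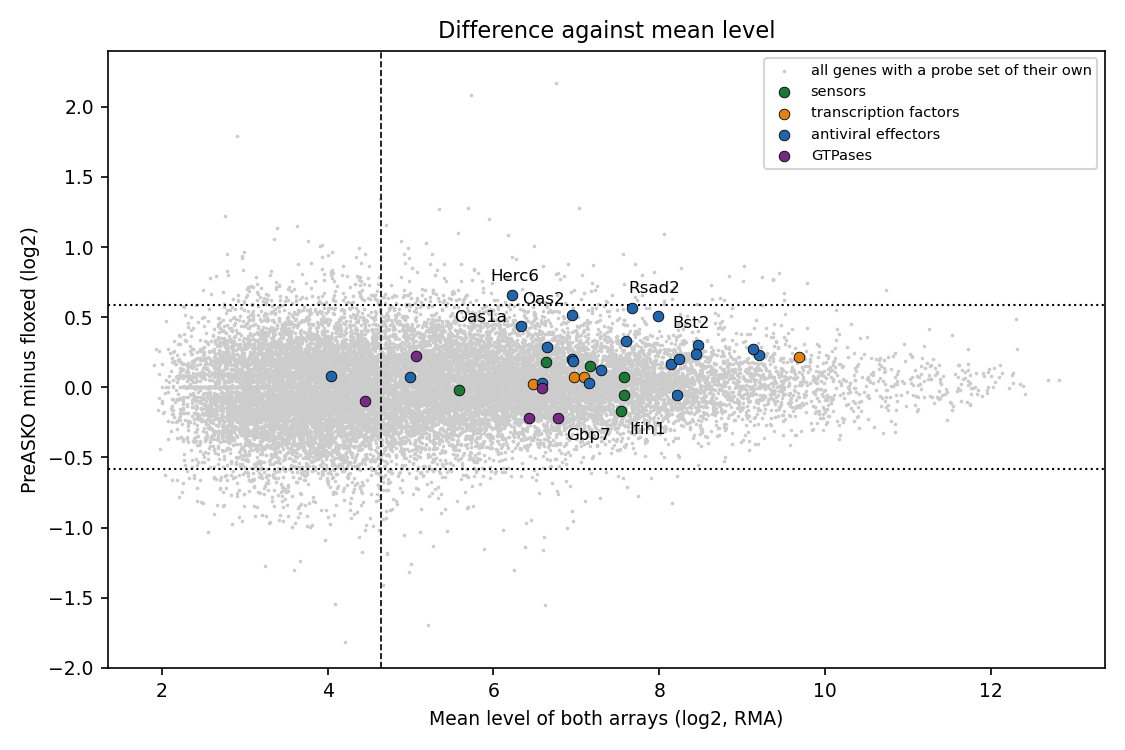
Difference PreASKO minus floxed (log2) against the mean level of both arrays (log2, RMA) for 19938 genes (grey) and the 36 members (coloured by role). Dotted lines mark 1.5-fold in each direction and the dashed line the background mark; Herc6 is the member beyond 1.5-fold, and no member is beyond it below 0.

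Members that are neighbours in the genome did not always match. In the RefSeq gene order of GRCm38.p6, Rsad2 and Cmpk2 are adjacent protein-coding genes, and their differences were 0.57 for Rsad2 and 0.08 for Cmpk2. For the adjacent Oas2 and Oas3 they were 0.52 and 0.08 in that order, but Oas3 was below background. The adjacent Oasl2 and Oasl1 had differences of -0.06 for Oasl2 and 0.19 for Oasl1. The adjacent Ifit2 and Ifit3 were alike, at 0.33 for Ifit2 and 0.30 for Ifit3. Parp14 and Parp9, with 1 gene between them, both had a difference of 0.03. Gbp7 was at -0.22 and its neighbour Gbp3 at -0.01.

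The interferon genes themselves had differences of both signs. Of 16 measured interferon genes 9 were higher and 7 lower, with a median difference of 0.06 and none past 1.5-fold, and 8 were below background on both arrays. Over the 8 with a mean above the mark the median difference was -0.007. Above the mark, the most positive were Ifna14 (0.19), Ifnz (0.17), Ifnb1 (0.10) and Ifna16 (0.02), and the most negative were Ifnl2 (-0.16), Ifna5 (-0.06), Ifna9 (-0.06) and Ifna2 (-0.03). The Ifna genes are near-identical copies, so their single probe sets are uncertain. Ifng was below background on both arrays, with 4.55 on the PreASKO array and 3.98 on the floxed array.

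Receptor and JAK-STAT genes had a median difference of 0.07, with 11 of 14 higher and none past 1.5-fold. Tyk2, the kinase bound to IFNAR1, was the most positive of them, with 5.54 on the PreASKO array and 5.06 on the floxed array, a difference of 0.48. The receptor genes Ifngr2 (0.17), Il10rb (0.13) and Ifnar1 (0.10) differed less. Genes of inhibitors were split, with Socs3 at 0.24 and Pias1 at 0.22 but Socs1 at -0.27. Ifngr1 (-0.05) and the phosphatase gene Ptpn6 (-0.01) were level.

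Genes of nucleic acid sensing and interferon induction had a median difference of 0.22, with 13 of 16 higher, 2 lower and none past 1.5-fold. The most positive were Irf5, Tlr7, Aim2, Tlr8, Unc93b1 and Tlr9. Irf5, a factor downstream of Toll-like receptors, had 6.01 on the PreASKO array and 5.52 on the floxed array, a difference of 0.49. Tlr7, a receptor for single-stranded RNA, had 6.30 (PreASKO) and 5.82 (floxed), a difference of 0.48. Tlr8 differed by 0.39, Tlr9, the receptor for unmethylated DNA, by 0.36 from a floxed level of 4.51 below the mark, and Unc93b1, which carries these receptors to endosomes, by 0.38. The cytosolic DNA sensor gene Aim2 differed by 0.40. Mavs, the adaptor of RIG-I and MDA5, differed by 0.01 and Tlr3, the endosomal receptor for double-stranded RNA, by 0.04, both chosen after their values were seen. The negative end held Traf6 (-0.27) and Ticam1 (-0.06).

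A further list held interferon-stimulated genes outside the members. Of 55 measured genes 37 were higher and 16 lower, with a median difference of 0.09. Gbp11 was the 1 gene past 1.5-fold, and it was below background with 4.40 on the PreASKO array and 3.74 on the floxed array. Above the mark, the most positive were Slfn8 (0.47), Ube2l6 (0.46), the conjugating enzyme gene for ISG15, the Fc receptor gene Fcgr1 (0.46), Ddx60 (0.44), Helz2 (0.43) and the exonuclease gene Isg20 (0.40). The most negative were Trim12a (-0.52), Znfx1 (-0.30), Daxx (-0.14), Ifitm1 (-0.10), Nlrc5 (-0.08), the activator of MHC class I genes, and Nmi (-0.07).

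Macrophage markers were higher on the PreASKO array as well. Of 20 markers 19 were higher on the PreASKO array, 6 of them by at least 1.5-fold, and the median difference was 0.44. Cx3cr1 was the 1 lower marker, with 5.80 on the PreASKO array and 6.40 on the floxed array. Summed as linear levels, the 20 markers came to 13256 on the PreASKO array and 9361 on the floxed array, a ratio of 1.42. The 36 members came to 7311 on the PreASKO array and 6405 on the floxed array, a ratio of 1.14, and all genes had a ratio of 1.02. Whether the ratios of the members and of the markers differ beyond the spread between mice has no test.

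Markers of other immune cells were partly below background. Of 12 measured lymphocyte markers 9 were below background on both arrays, with summed linear levels of 238 on the PreASKO array and 206 on the floxed array. Their median difference was 0.01, with 6 higher and 6 lower, and 2 were at least 1.5-fold higher. Cd3e, a T cell receptor subunit gene, had 5.84 on the PreASKO array and 4.96 on the floxed array, a difference of 0.88, and Il7r was below background on both. Cd3e was not matched by the other lymphocyte markers above the mark, Cd3g (0.12) and Cd8a (0.13). Cd3d and Cd4 were lower but below background. Of 10 markers of dendritic and plasmacytoid cells 5 were below background on both arrays, including Flt3, Xcr1, Clec9a and Itgax, and the median difference was -0.13. Of these 10 markers 4 were higher and 6 lower. Their summed levels were 1046 (PreASKO) and 1038 (floxed). Siglech, a plasmacytoid marker, had 5.91 (PreASKO) and 5.48 (floxed), a difference of 0.43, and Bst2, which is also a plasmacytoid marker, is itself a member. The others of this list above the mark went both ways, with Zbtb46 at 0.24, Tcf4 at -0.22 and Batf3 at -0.25. The fibroblast-like cell markers had a median difference of -0.05, with 2 of 11 higher and 9 lower, and summed levels of 21283 on the PreASKO array and 21734 on the floxed array. The part of these cells in the result was not tested.

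**Figure D4:**
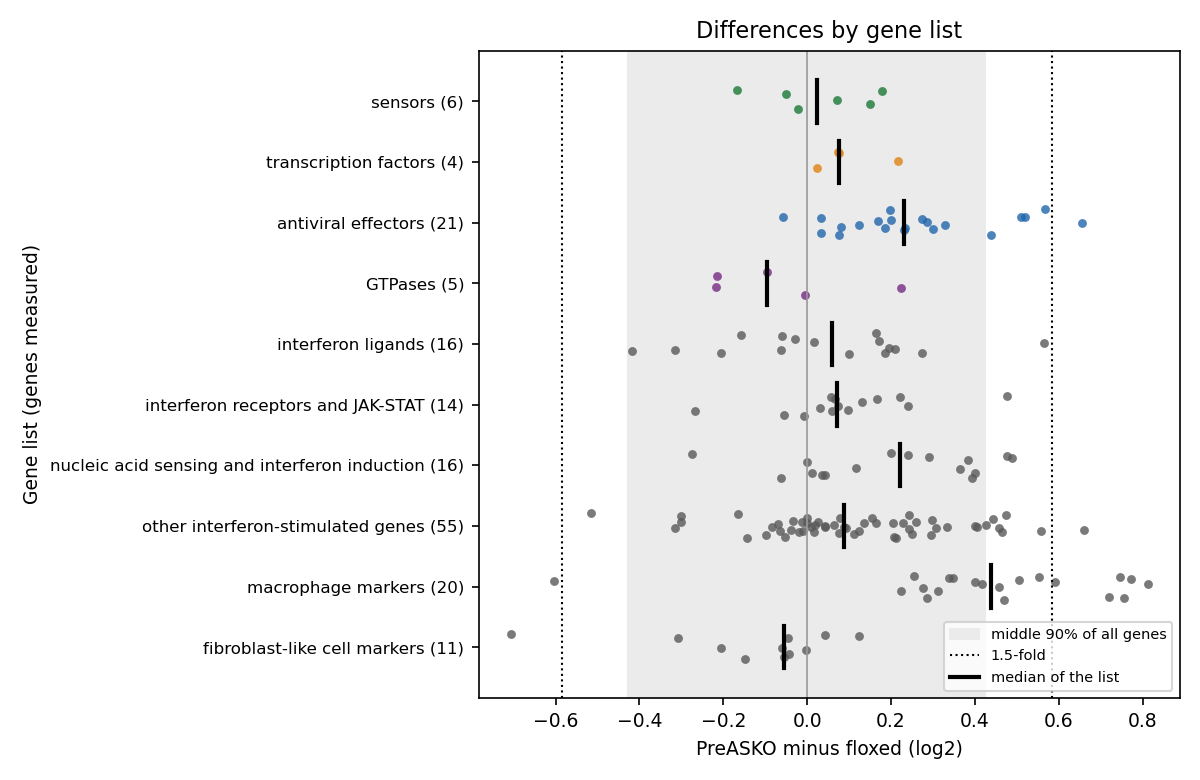
Difference PreASKO minus floxed (log2) of every measured gene in the role groups of the interferon-stimulated genes (coloured) and in related lists (grey). Black bars are list medians, the shaded band is the middle 90% of all genes and dotted lines are 1.5-fold; the medians are 0.23 for antiviral effectors and 0.44 for macrophage markers, and the GTPase bar at -0.09 is the value of Mx1, which is below background.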

How the data were processed

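RNA was hybridised to 1 array per group. The authors deposited log2 expression values made with RMA, per the submitters' processing notes. RMA subtracts an estimated background, brings the distributions of arrays together and combines the probes of each set. Its version is not given in the sources used here. The log2 base is read from the values, which run from 1.23 to 13.8. RMA compresses differences of dim genes.

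Of 35556 probe sets, 21789 name 1 gene in the platform annotation, 1621 name several and 12146 are unlisted and were not used. Gene identifiers of all 36 measured members matched RefSeq GRCm38.p6, with no symbol changed. Per gene the difference PreASKO minus floxed was taken, and lists were described by counts and medians beside all genes. With 1 array a group no test was made.

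The members, their roles, the related lists and the motifs were chosen with earlier results of these data known. All members could be named. Outside them, the text names up to 6 genes per direction of each pathway list with a mean level above the background mark, and macrophage markers. Mavs, Tlr3, Ifng, Ifit3b, the GTPase genes outside the members and the lymphocyte, dendritic and plasmacytoid markers were named after their values were seen. Sox9 and Pdgfra were chosen as checks of the labels. The other lists of markers, of endothelial, mural and fat cells, had median differences of -0.16, -0.32 and 0.01.

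Alternatives were the mean over probe sets, centring, a loess correction (span 0.3), quantile normalization, level floors at the 95th and 99th percentile of olfactory receptor genes, values raised to the mark, and fold limits of 1.2 and 2. The probe sets shared with another gene, and a count over promoter windows, were chosen after seeing the data. The per-gene step was run on simulated data to check the code. Every probe set of a gene carried the same simulated difference there, so the choice of probe set was not tested. Python 3.11.15, pandas 2.3.3, numpy 2.4.6, statsmodels 0.14.6 and matplotlib 3.10.9 were used.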

Additional observations from a re-analysis of the deposited data

How the results depend on the processing

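The median difference of the members ran from 0.12 to 0.17 over 9 alternatives, and that of the antiviral effectors from 0.21 to 0.23 over 8. Of the 9, 1 was set to leave out Bst2, Gbp2, Lgals3bp and Ifi27. Gbp2 was not measured alone, so 33 members were left there, with a median of 0.12. The sensors, transcription factors and the lists of receptors, nucleic acid sensing and other interferon-stimulated genes also moved by less than 0.1. With members above the 99th percentile of olfactory receptor genes, 3 GTPases were left and their median became -0.215, and that of 5 interferon ligands became -0.059, against 0.058 for all 16; fewer genes entered these medians. The GTPase median ran from -0.215 to -0.006 over 8 alternatives, the last with values raised to the mark. The count of members higher than the fold limit was 1 at 1.5-fold, 9 at 1.2-fold and 0 at 2-fold. Centring changed nothing by construction, since the median over all genes was 0, and the mean over probe sets changed only Irf1 among the members. Quantile normalization turned the sign of no member, and the loess correction that of Irf9. Counted over windows, 47.1% of member promoters and 3.44% of all promoters held the response element core. Leaving out a replicate could not be tried. No paired analysis was possible because there is a single array of each genotype. With 1 array a group, none of these ranges includes the spread between animals or arrays.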
